A study of Callithrix jacchus with 54 samples.

Results

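The comparison described here asked what BMP4 added to the first day of germ cell induction when SOX17 was already active. It used 8 of the 54 libraries of the study, chosen by their labels: 4 libraries of cells under SOX17 + BLSE, which held BMP4, and 4 under SOX17 + LSE, which did not, with 2 replicates of each at 12 and at 24 h. All 8 came from CMES40, an embryonic stem cell line of the common marmoset (cjESC) that had been kept in DK20FA medium with activin A and bFGF. The line carries a tdTomato reporter at PRDM1 (also called BLIMP1) and an eGFP reporter at NANOS3, together with rtTA, a tetO-BLIMP1 transgene, SOX17 fused to the hormone-binding part of the glucocorticoid receptor (SOX17-GR) and a destabilised TFAP2C transgene. In both arms the cells were aggregated with LIF, SCF, EGF and a Rock inhibitor, and SOX17-GR was switched on with dexamethasone, so that the arms differed in BMP4 only. The labels give the cells of these libraries as all cells, not selected for a reporter, and per the methods of the study they were collected through a gate of a cell sorter. The libraries used here hold no aggregates without both BMP4 and SOX17, and the data come from 1 line, so an effect of BMP4 that needs SOX17 cannot be told apart from one that does not. The replicates are biological duplicates per the methods of the study, which do not say whether they were made on different days. The p-values measure only the spread between replicates of a condition, pooled by the model over all 54 libraries of the study. Most of these libraries are of conditions other than those compared. Since the cells were not separated by type, more cells of a type and more RNA per cell cannot be told apart in any value below.

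BMP4 is a secreted ligand that binds a pair of type I and type II receptor kinases, which phosphorylate SMAD1, SMAD5 and SMAD9. These join SMAD4 in the nucleus and switch on a small set of early targets, among them the ID genes, the MSX and DLX homeobox genes and the inhibitors that feed back on the pathway. In the primate embryo BMP signalling is known for the specification of primordial germ cells (PGCs), of amnion and of posterior mesoderm from the pluripotent epiblast, and SOX17 is known as an early regulator of primate PGCs.

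Levels are the deposited TPM values (transcript abundances scaled by gene length and library) of each library. Since TPM does not keep the number of reads, the depth is unknown. Each gene's levels are written as replicates 1 and 2 with BMP4 against replicates 1 and 2 without it. Arms said not to overlap, or to be apart, describe these libraries and are no test of a difference. An exact permutation test of 2 against 2 libraries cannot go below p = 0.333. The share of all genes without overlap was not counted. Where a call was lost with 1 library left out, that library is given as BLSE or LSE (SOX17 + BLSE or SOX17 + LSE of that time) with its replicate number. Differences are given as log2 differences of log2(TPM + 1), with BMP4 minus without it, ± the SE of a limma model over all 54 libraries, and p-values are two-sided and adjusted by the Benjamini-Hochberg method over all 11197 genes tested. This scale understates the change of weakly expressed genes. Genes were sorted by a pair of rules. The stricter one, for differentially expressed genes (DEGs), asked for a change of over 4-fold, for a mean log2 level of the groups above 1.5 and for an adjusted p below 0.01. A gene is written as called where its adjusted p was below 0.05. The 8 libraries were alike in genes listed and in replicate correlation: they listed between 11918 and 12277 of 14812 genes above 0, and replicates correlated across genes between 0.988 and 0.990. These values do not measure RNA quality. The pluripotency factors POU5F1 and NANOG were high in all 8, at 3255 TPM or more and 382 TPM or more, and the liver and yolk sac protein gene AFP was listed at 0 in all 8. AFP does not stand for endoderm genes as a list: the 13 in the data summed to between 378 and 494 TPM. Summed over the 12 genes of a list of fibroblast markers, levels were 329 and 461 TPM with BMP4 against 345 and 454 TPM without it at 12 h. At 24 h they were 243 and 350 TPM with BMP4 against 336 and 423 TPM without it, in ranges that overlapped. The sum was higher in replicate 2 than in replicate 1 of each group, and in 1 of the 11 tested members, THY1, the arms were called different, at 24 h. The part of such cells in the results was not tested.

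At 12 h, 10 genes were DEGs, all of them higher with BMP4 (0.0893% of the genes tested), and none was lower (0%; 0 also at an unadjusted p under 0.05, in limma). By the second rule 47 genes were called higher (0.42%) and 6 lower (0.0536%). At 24 h, 20 genes were DEGs with higher levels (0.179%) and 4 with lower levels (0.0357%), and 287 genes were called higher (2.56%) and 258 lower (2.3%). Over both times, 16 DEGs were higher (0.143%) and 0 lower (0%; 0 also at an unadjusted p under 0.05, in limma), while 347 genes were called higher (3.1%) and 281 lower (2.51%). The median log2 difference over all genes was 0.01 at 12 h and −0.04 at 24 h. At 12 h the calls were thus few and mostly increases, and at 24 h decreases were nearly as many as increases. All libraries gave 53 called genes at 12 h and 545 at 24 h, and fewer were called with any 1 of the 4 libraries of a time left out. That leaves 1 library in a group and raises the SE whichever library goes. The fall therefore cannot show that the calls rested on a single library. The lowest counts were those without SOX17 + BLSE replicate 1 at either time. A model of only the 8 libraries called 15 genes at 12 h and 299 at 24 h.

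The libraries of the different times are separate samples, so the direction at 12 h could be set beside the calls at 24 h. Of the 287 genes called higher at 24 h, 273 also stood higher with BMP4 at 12 h (95.1%), with a median difference of 0.51 at 12 h and 1.16 at 24 h. Of the 258 called lower, 238 stood lower at 12 h (92.2%), with medians of −0.30 and −0.94. Over all genes tested, the direction at both times was the same for 59.1%. Of the 53 genes called at 12 h, 48 were also called at 24 h and in the same direction, which is 90.6% of the former list and 8.81% of the latter. All 24 DEGs of 24 h had the same direction at 12 h, and 6 genes were DEGs at both times: MSX2, ID4, DLX3, SP6, FADS6 and TBX3.

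**Figure D1:**
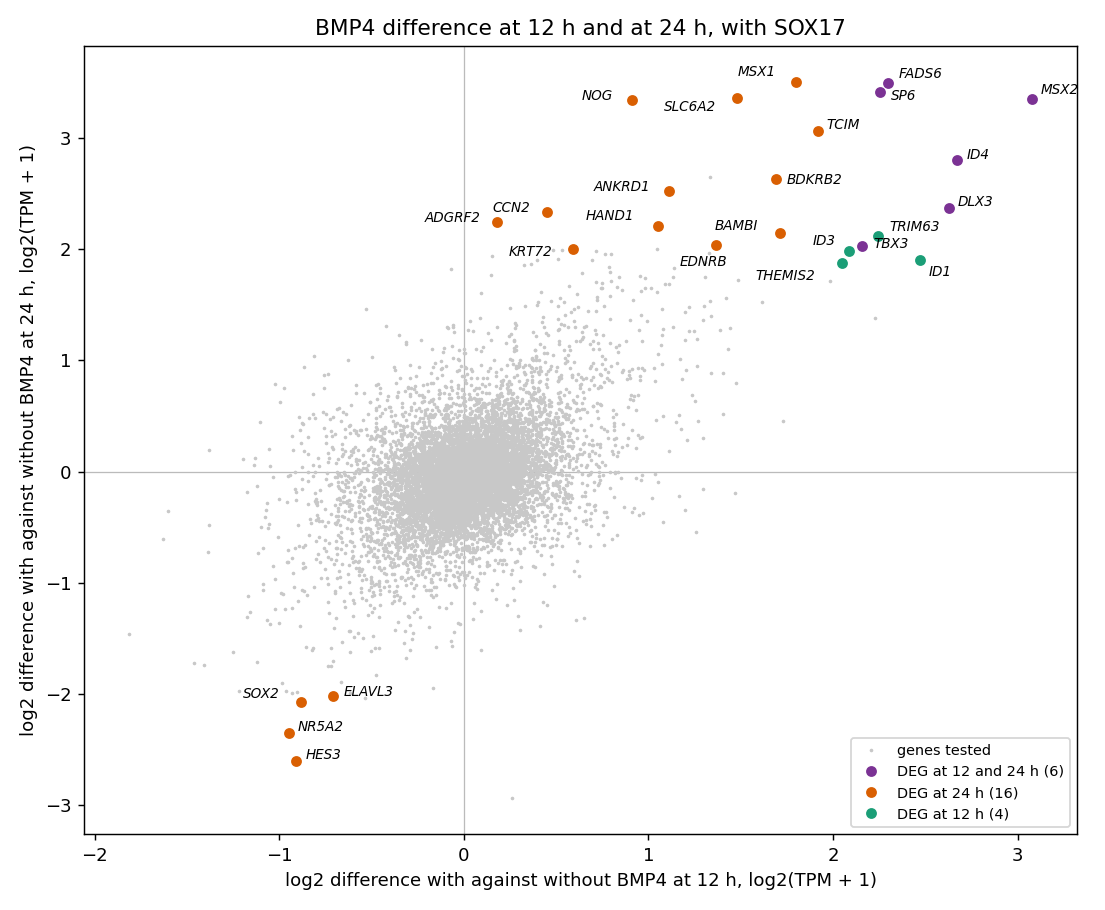
Log2 difference with against without BMP4 at 12 h (x axis) and at 24 h (y axis), both on the log2(TPM + 1) scale, for the genes tested; coloured points are DEGs of either time, 2 of which are not drawn. MSX2 lies furthest right at 3.08, and the 4 lower DEGs lie at the bottom left.

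Of the 10 DEGs of 12 h, 6 were transcription regulators listed as BMP targets: MSX2, ID1, ID3, ID4, DLX3 and TBX3. Of 20 transcription factors listed as BMP targets, 16 were among the genes of the deposited data, and all 16 passed the filter on low levels. Of these, 8 were called higher at 12 h and 13 at 24 h, with none called lower (0 lower also at an unadjusted p under 0.05). Their median difference was 1.37 at 12 h and 1.83 at 24 h. Over all genes tested these medians were 0.01 and −0.04. MSX2 (gene 100387689), a homeobox repressor, was at 233 and 197 TPM against 26 and 23.1 TPM at 12 h, and at 349.9 and 289.6 TPM against 40.9 and 22.5 TPM at 24 h. The lowest library with BMP4 stood well above the highest without it at both times, and cjESCs held 21.6 and 24.5 TPM, close to the arm without BMP4. The difference in limma was 3.08 ± 0.22 (adjusted p = 6.55e-12) at 12 h, the largest of any gene, then 3.35 ± 0.22 (adjusted p = 8.17e-13) at 24 h.

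The ID proteins bind basic helix-loop-helix factors and keep them from DNA. ID1 (gene 100412122) was at 818 and 777 TPM against 147 and 139 TPM at 12 h, and at 958 and 929 TPM against 276 and 229 TPM at 24 h. ID4 (gene 103792242) was at 38.04 and 26.9 TPM against 4.01 and 4.34 TPM at 12 h and at 48.2 and 43.2 TPM against 6.81 and 4.75 TPM at 24 h. For ID3 (gene 100391237) the levels were 393 and 359 TPM against 85 and 90.6 TPM at 12 h and 384 and 376 TPM against 105 and 86.02 TPM at 24 h. None of these groups overlapped between the arms. The differences at 12 h were 2.47 ± 0.18 (adjusted p = 6.55e-12) for ID1, 2.67 ± 0.22 (adjusted p = 7.87e-11) for ID4 and 2.08 ± 0.17 (adjusted p = 1.11e-10) for ID3. Those at 24 h were 1.903, 2.799 and 1.99 (largest adjusted p = 3.21e-09). The 3 genes started from unequal levels. In cjESCs, which were cultured without added BMP4, ID1 was at 279 and 208 TPM, ID3 at 174 and 164 TPM and ID4 at 4.53 and 4.29 TPM. At 12 h without BMP4, ID1 and ID3 stood below cjESCs, with log2 differences of −0.75 (adjusted p = 0.00368) and −0.94 (adjusted p = 0.000179), whereas ID4 differed from them by −0.06 (adjusted p = 0.904). With BMP4 all 3 stood above cjESCs, by 1.72 (adjusted p = 7.24e-09), 1.15 (adjusted p = 7.04e-06) and 2.61 (adjusted p = 3.18e-11). The BMP4 calls of MSX2 and of the 3 ID genes held at both times when any 1 of the 8 libraries was left out, as did those of SP6, TBX3, DLX3, BAMBI, SMAD6, SMAD7 and THEMIS2.

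**Figure D2:**
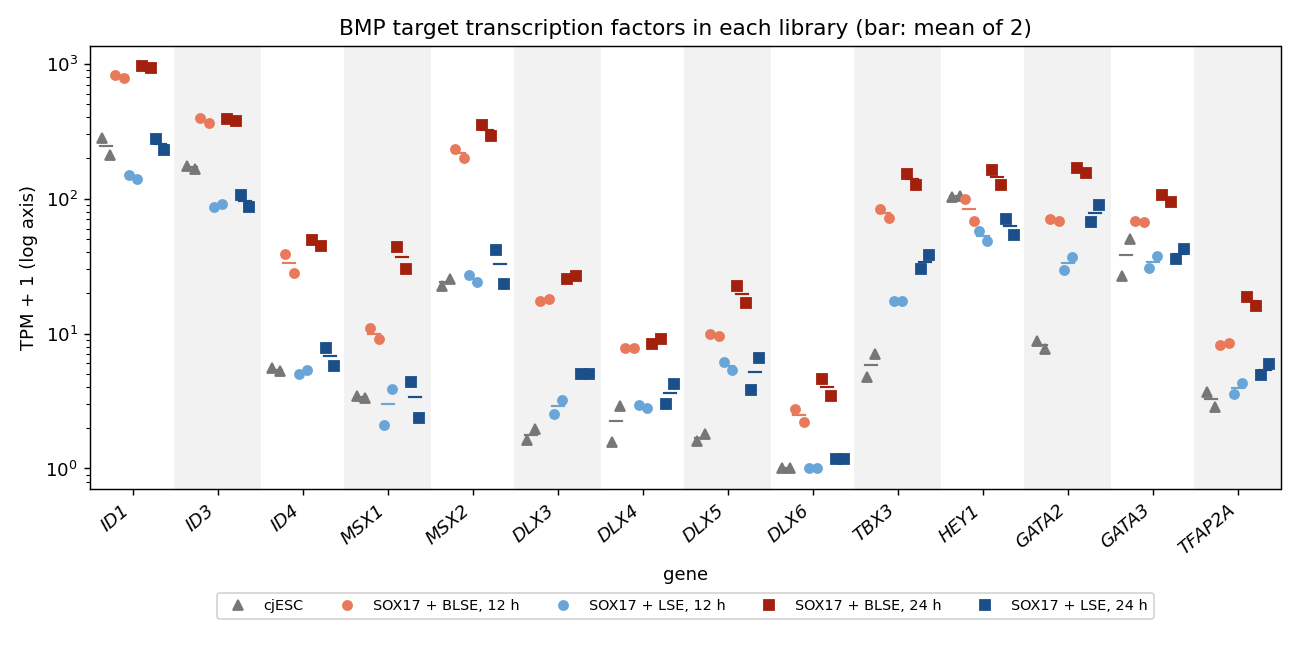
Levels of 14 BMP target transcription factors as TPM + 1 on a log axis, by gene; each point is 1 library and each bar the mean of 2, for cjESCs (grey triangles) and for cells with BMP4 (red) and without it (blue) at 12 h (circles) and 24 h (squares). MSX2, ID4 and TBX3 show the red points far above the blue, GATA2 rose in both arms, and HEY1 without BMP4 lay below cjESCs.

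Other homeobox and T-box targets moved with them. TBX3 (gene 100397791), a T-box repressor, was at 82.3 and 71.1 TPM against 16.4 and 16.3 TPM at 12 h and 151 and 125 TPM against 29.01 and 37.1 TPM at 24 h. Its difference was 2.16 ± 0.29 (adjusted p = 7.42e-06) and 2.03 ± 0.29 (adjusted p = 7.67e-06). Without BMP4 it still stood above the 3.78 and 6.01 TPM of cjESCs, by 1.58 (adjusted p = 0.000133) at 12 h, then 2.55 (adjusted p = 2.52e-08) at 24 h. MSX1 (gene 100412220), the closest relative of MSX2, was at 9.9 and 8.07 TPM against 1.1 and 2.89 TPM at 12 h and 42.97 and 29.3 TPM against 3.39 and 1.35 TPM at 24 h. Its difference was 1.799 ± 0.40 (adjusted p = 0.0221) at 12 h, then 3.51 ± 0.40 (adjusted p = 1.68e-07) at 24 h. The paralog with the lower level thus had the smaller difference at 12 h and a similar one at 24 h. From 12 to 24 h MSX1 changed by 1.88 (adjusted p = 0.00929) with BMP4 and by 0.17 (adjusted p = 0.917) without it, but the BMP4 difference of 24 h minus that of 12 h did not pass, at 1.71 ± 0.57 (adjusted p = 0.709). The 24 h call held without any 1 library, and the 12 h call was lost without BLSE 1, BLSE 2 or LSE 1 (adjusted p = 0.0983 to 0.526).

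The DLX homeobox genes lie in pairs in the genome, and all 4 that were tested stood higher with BMP4. DLX3 (gene 100387476) was at 16.3 and 17.1 TPM against 1.54 and 2.23 TPM at 12 h and 24.5 and 25.5 TPM against 4.03 and 4.02 TPM at 24 h, with no overlap. This was a difference of 2.63 ± 0.40 (adjusted p = 0.000119) and 2.37 ± 0.40 (adjusted p = 0.000141). Its partner DLX4 (gene 100394240) was at 6.85 and 6.83 TPM against 1.95 and 1.82 TPM at 12 h and 7.4 and 8.09 TPM against 2 and 3.26 TPM at 24 h. The difference of DLX4 was 1.44 ± 0.36 (adjusted p = 0.0616) at 12 h, which did not pass, and 1.37 ± 0.26 (adjusted p = 0.00046) over both times. DLX4 was also called higher at 24 h. It passed at 12 h in the model of the 26 libraries of the line with transgenes (adjusted p = 0.0374). DLX5 (gene 100399579) was at 8.87 and 8.66 TPM against 5.19 and 4.35 TPM at 12 h and 21.6 and 15.7 TPM against 2.8 and 5.59 TPM at 24 h. It differed by 0.76 ± 0.31 (adjusted p = 0.611) and then 1.96 ± 0.31 (adjusted p = 7.13e-05). DLX6 (gene 100896805) was listed at 0 in both libraries without BMP4 at 12 h and at 1.75 and 1.22 TPM with it, so that no fold is given there. It was called at 12 h (adjusted p = 0.0358), and this call was lost without any 1 of the 4 libraries (adjusted p = 0.101 to 0.575), in models of the 8 or the 26 libraries and with quantile normalization (adjusted p = 0.0534 to 0.101). At 24 h it was at 3.58 and 2.44 TPM against 0.18 and 0.18 TPM (difference 1.75 ± 0.31, adjusted p = 0.000222). Within each pair, DLX3 and DLX5 were at the higher TPM at 24 h.

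GATA3, GATA2 and TFAP2A, transcription factors of amnion and trophoblast, are also on the BMP target list. GATA3 (gene 100389441) was at 67.8 and 65.6 TPM against 29.7 and 36.7 TPM at 12 h and 105 and 92.7 TPM against 34.9 and 41.2 TPM at 24 h. GATA2 (gene 100411598) was at 69.1 and 66.98 TPM against 28.8 and 36.1 TPM at 12 h and 167 and 154 TPM against 65.6 and 88.99 TPM at 24 h. Neither pair of arms overlapped. The difference of GATA3 was 0.99 ± 0.28 (adjusted p = 0.143) at 12 h, then 1.36 ± 0.28 (adjusted p = 0.00164) at 24 h. That of GATA2 was 1.05 ± 0.33 (adjusted p = 0.281) and 1.06 ± 0.33 (adjusted p = 0.0565), so that it passed at neither time, and it passed over both times together, at 1.06 ± 0.23 (adjusted p = 0.00336). GATA2 was above cjESCs (7.84 and 6.69 TPM) without BMP4 as well, by 3.23 (adjusted p = 4.27e-09) at 24 h, while GATA3 without BMP4 differed from them by 0.09 (adjusted p = 0.87). TFAP2A (gene 100393261), an early regulator of surface ectoderm and amnion, was at 17.7 and 14.97 TPM against 3.89 and 4.9 TPM at 24 h, a difference of 1.68 ± 0.28 (adjusted p = 0.000106). The NOTCH and BMP target HEY1 (gene 100389602) was at 161 and 126 TPM against 69.97 and 53.1 TPM at 24 h (1.21 ± 0.19, adjusted p = 4.99e-05). Its levels without BMP4 were below the 102 and 104 TPM of cjESCs, with a difference of −0.75 (adjusted p = 0.00424). The 2 tested members of the list that were not called at any time were TBX2, at or under 2.02 TPM in all 8 libraries, and TFAP2B, at or under 0.35 TPM.

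Among 20 tested genes of a list of amnion-associated genes, 2 were called higher at 12 h and 6 at 24 h, and none lower (unadjusted p under 0.05: 1 lower at 12 h and 0 at 24 h). Their median difference was 0.17 at 12 h and 0.28 at 24 h. Over all genes tested, 0.42% were called higher at 12 h and 2.56% at 24 h. TFAP2A, GATA3, HEY1 and BAMBI are shared with the BMP lists. The further 2 at 24 h were HAND1 (gene 100399939), a basic helix-loop-helix factor of extraembryonic and lateral mesoderm, and ISL1 (gene 100385297), a LIM homeobox factor. HAND1 was at 680.1 and 611 TPM against 299.8 and 322 TPM at 12 h and 1023 and 794 TPM against 211 and 178 TPM at 24 h. The arms were apart at both times, and the difference was 1.05 ± 0.32 (adjusted p = 0.214) and 2.21 ± 0.32 (adjusted p = 1.05e-05). ISL1 was at 12.3 and 10.7 TPM against 2.49 and 2.95 TPM at 24 h, 1.75 ± 0.27 (adjusted p = 3.1e-05). Genes of maturer amnion were weak: VTCN1 was at or under 2 TPM and GABRP at or under 0.99 TPM in all 8 libraries, with overlapping arms for GABRP. CDX2 (gene 100412955), of trophoblast, amnion and posterior mesoderm, was at 51.97 and 38.1 TPM against 26.7 and 19.6 TPM at 24 h, with a difference of 0.93 ± 0.42 (adjusted p = 0.262) that did not pass.

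Inside the pathway, the calls fell mostly on inhibitors, both intracellular and secreted. Of 24 inhibitors and feedback genes, 21 were tested, of which 4 were called higher at 12 h and 7 at 24 h, and 1 was called lower at 24 h. The inhibitory SMADs block receptor SMADs at the receptor. SMAD6 (gene 100389459) was at 112 and 116 TPM against 40.9 and 39.4 TPM at 12 h and 123 and 111 TPM against 36.6 and 32.7 TPM at 24 h. It differed by 1.48 ± 0.21 (adjusted p = 2.31e-05) at 12 h, then by 1.73 ± 0.21 (adjusted p = 5.11e-07). SMAD7 (gene 100405407) was at 94.4 and 97.9 TPM against 42.2 and 45.9 TPM at 12 h and 114 and 109 TPM against 32.5 and 35.3 TPM at 24 h (1.11 ± 0.17, adjusted p = 9.55e-05, then 1.69 ± 0.17, adjusted p = 7.35e-09). BAMBI (gene 100401264), a decoy receptor, was at 347 and 332 TPM against 104 and 102 TPM at 12 h and 522 and 498 TPM against 112 and 117 TPM at 24 h. The difference was 1.71 ± 0.18 (adjusted p = 6.58e-08), then 2.14 ± 0.18 (adjusted p = 1.41e-10). In all 3 the libraries without BMP4 lay close together and far below those with it. PMEPA1 (gene 100412237), which retains receptor SMADs, was at 52.9 and 46.7 TPM against 24.9 and 23.8 TPM at 24 h (1.002 ± 0.20, adjusted p = 0.00147).

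Among the secreted antagonists, the course from 12 to 24 h in each arm is given for NOG. NOG (gene 100395820, noggin), which binds BMP ligands, was at 68.98 and 97.7 TPM in cjESCs. At 12 h it was at 77.97 and 82.3 TPM against 46.3 and 38.3 TPM, and at 24 h at 72.8 and 67.2 TPM against 6.7 and 5.35 TPM. At 24 h its distance from cjESCs was −0.23 (adjusted p = 0.709) with BMP4 and −3.57 (adjusted p = 3.28e-09) without it. From 12 to 24 h it changed by −2.62 (adjusted p = 4.74e-05) without BMP4 and by −0.19 (adjusted p = 0.908) with it. The BMP4 difference was 0.91 ± 0.36 (adjusted p = 0.571) at 12 h, then 3.34 ± 0.36 (adjusted p = 5.45e-08) at 24 h. The difference of 24 h minus that of 12 h was 2.43 ± 0.51 (adjusted p = 0.0901) for NOG, which did not pass, and passed in a model restricted to the 26 libraries of the line with transgenes (adjusted p = 0.00508). Over all genes tested, 2 were called in this way (0.0179%). Lower with BMP4 was SOST (gene 100414642), an inhibitor of WNT and BMP signalling, at 0.84 and 0.9 TPM against 9.51 and 4.28 TPM at 24 h (−1.99 ± 0.39, adjusted p = 0.000982; lost without LSE 1, adjusted p = 0.091). FST (gene 100412680, follistatin), which binds activin and BMPs, was at 173 and 197 TPM against 173 and 181 TPM at 24 h in overlapping ranges.

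**Figure D3:**
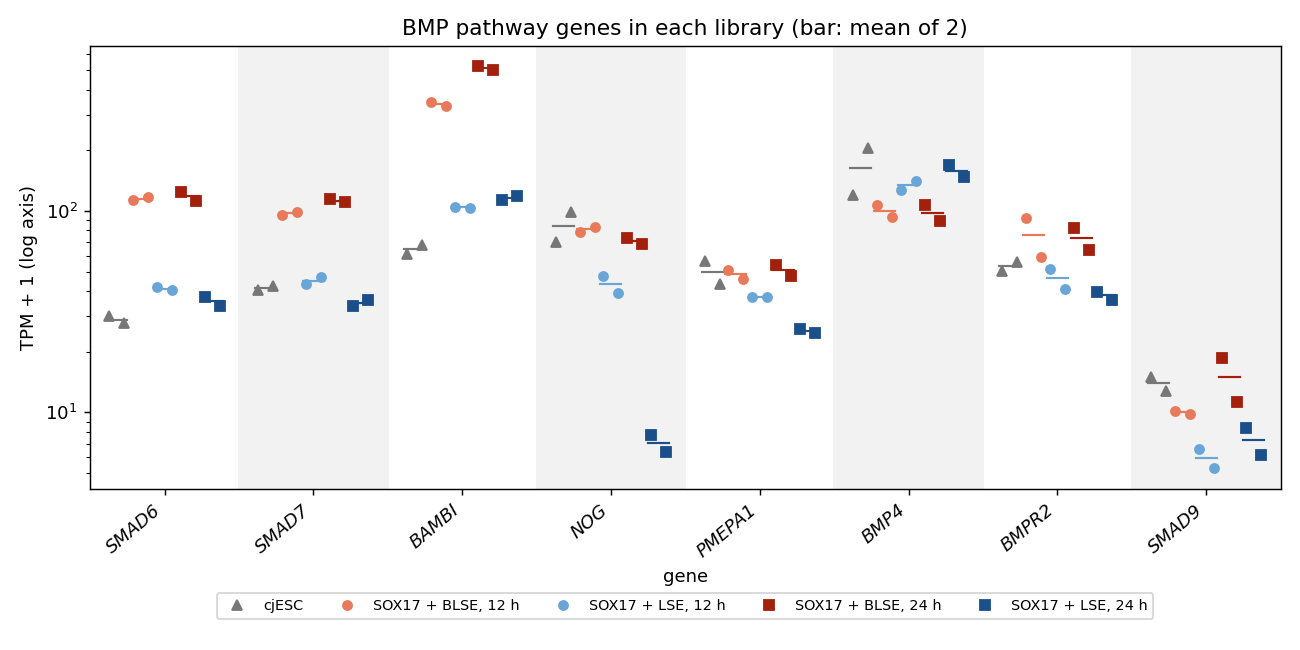
Levels of 8 genes of the BMP pathway as TPM + 1 on a log axis, by gene, drawn as in the plot of target genes (points are libraries, bars means of 2). NOG without BMP4 at 24 h, at 6.70 and 5.35 TPM, lies far below cjESCs and all other groups, whereas SMAD6, SMAD7 and BAMBI show both times apart by arm.

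Of 6 tested BMP ligand genes, 1 was called: BMP4 (gene 100398270) itself, lower with added BMP4 at 24 h, at 106 and 88.03 TPM against 168 and 146 TPM (−0.69 ± 0.19, adjusted p = 0.0219), and at 119 and 205 TPM in cjESCs. The call was lost without BLSE 2, LSE 1 or LSE 2 (adjusted p = 0.0552 to 0.254). BMP2 was at 6.6 and 9.71 TPM against 9.68 and 6.56 TPM at 24 h and BMP7 at 74.6 and 67.4 TPM against 124 and 103 TPM, and neither passed. Of 7 tested receptor genes, the type II receptor BMPR2 (gene 100402963) was called higher at 24 h, at 80.8 and 63.3 TPM against 38.8 and 35.3 TPM (0.93 ± 0.24, adjusted p = 0.0156). It was lost without BLSE 1, LSE 1 or LSE 2 (adjusted p = 0.0791 to 0.231). The type I receptor BMPR1A was at 67.97 and 53.5 TPM against 54.03 and 47.8 TPM, with arms that overlapped. Among the 4 SMADs that carry the signal, SMAD9 (gene 100405004) was called higher at 24 h, at 17.6 and 10.2 TPM against 7.34 and 5.18 TPM (1.01 ± 0.26, adjusted p = 0.0158). It lost this call without BLSE 1 or LSE 2 (adjusted p = 0.241 to 0.382). SMAD4, the shared partner, was at 42.05 and 33.4 TPM against 34.6 and 36.5 TPM, and SMAD1 and SMAD5 were at or under 3.76 TPM in all 8 libraries.

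DEGs outside the BMP lists were of several kinds. SP6 (gene 100407791), a zinc finger factor of the SP family known from epithelial tissues, was at 68.2 and 68.6 TPM against 12.5 and 14.6 TPM at 12 h and 158 and 130.3 TPM against 13.7 and 11.6 TPM at 24 h, where cjESCs held 6.43 and 4.72 TPM. The difference was 2.26 ± 0.25 (adjusted p = 1.42e-07) at 12 h, then 3.41 ± 0.25 (adjusted p = 4.27e-12) at 24 h. FADS6 (gene 100385447), a member of the fatty acid desaturase family, was at 12.8 and 7.3 TPM against 1.26 and 1.1 TPM at 12 h and 24.2 and 17.02 TPM against 0.81 and 0.97 TPM at 24 h (2.299 ± 0.38, adjusted p = 0.000487, then 3.496 ± 0.38, adjusted p = 6.61e-08). SLC6A2 (gene 100388661), the noradrenaline transporter, was at 19 and 14.1 TPM against 0.95 and 0.47 TPM at 24 h (3.36 ± 0.33, adjusted p = 7.35e-09). TCIM (gene 100400576), a regulator of transcription and signalling, was at 26.9 and 37.6 TPM against 1.82 and 4.42 TPM (3.07 ± 0.37, adjusted p = 5.11e-07). In all 4 the arms did not overlap, which is close to given for genes selected as DEGs. At 12 h the DEGs also held THEMIS2 (gene 100393674), a signalling adaptor of immune cells, at 19.8 and 16.9 TPM against 3.15 and 4.25 TPM (2.05 ± 0.24, adjusted p = 3.99e-07). TRIM63 (gene 100413206), a ubiquitin ligase of striated muscle, was at 5.31 and 6.32 TPM against 0.24 and 0.66 TPM (2.24 ± 0.40, adjusted p = 0.00118). The calls at 12 h were lost for FADS6 without BLSE 1 (adjusted p = 0.0857) and for TRIM63 without LSE 1 (adjusted p = 0.0778).

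A further group of DEGs at 24 h encodes secreted or cytoskeleton-linked proteins and receptors. CCN2 (gene 100412819), a matricellular growth factor, was at 121 and 105 TPM against 85.6 and 78.8 TPM at 12 h and 109 and 118 TPM against 20.1 and 23.5 TPM at 24 h (0.45 ± 0.38, adjusted p = 1, then 2.33 ± 0.38, adjusted p = 7.8e-05). ANKRD1 (gene 100409294), a nuclear ankyrin repeat protein, was at 28.2 and 51.1 TPM against 4.86 and 6.83 TPM at 24 h (2.52 ± 0.40, adjusted p = 4.87e-05). Both genes are widely used as readouts of YAP activity. In each, the arm without BMP4 was below cjESCs at 24 h, with differences of −1.44 (adjusted p = 0.00536) for CCN2 and −1.596 (adjusted p = 0.00329) for ANKRD1. Relative to the same cells, the differences with BMP4 were 0.89 (adjusted p = 0.0803) and 0.93 (adjusted p = 0.0831). Receptor genes among the DEGs were BDKRB2 (gene 100399591), the bradykinin receptor, at 15.8 and 12.4 TPM against 1.34 and 1.5 TPM at 24 h (2.63 ± 0.35, adjusted p = 2.14e-06), and EDNRB (gene 100412645), the endothelin receptor, at 29.4 and 23.3 TPM against 6.02 and 5.22 TPM (2.04 ± 0.30, adjusted p = 1.57e-05). The adhesion receptor gene ADGRF2 (gene 100411264) was at 9.08 and 4.82 TPM against 0.66 and 0.58 TPM (2.24 ± 0.38, adjusted p = 0.000141). ADGRF2 was at 10.5 and 6.12 TPM against 8.84 and 5.49 TPM at 12 h, where the arms overlapped. KRT72 (gene 100395494), a keratin of the hair follicle, was at 9.78 and 5.42 TPM against 1.66 and 0.62 TPM at 24 h (2.003 ± 0.39, adjusted p = 0.00097), and its call was lost without BLSE 1 (adjusted p = 0.0604). CCN2, ANKRD1, BDKRB2, EDNRB, ADGRF2 and KRT72 were chosen for naming after their values were seen.

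Seen against cjESCs, the 20 higher DEGs of 24 h were of more than 1 kind. With BMP4, 16 of them were called above cjESCs, 1 below and 3 in neither direction. Without it, 5 were called above, 7 below and 8 in neither. The 5 above cjESCs in both arms were SP6, DLX3, BAMBI, EDNRB and TBX3. NOG, CCN2 and ANKRD1 were not called against cjESCs with BMP4 and were called below them without it, FADS6 was above them with BMP4 and below them without it, and ADGRF2 was called below them in both arms. The differences from cjESCs in the arms share the cjESC libraries and are given side by side. The cjESCs had been selected for TRA-1-60, and the cells of the aggregates had not.

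**Figure D4:**
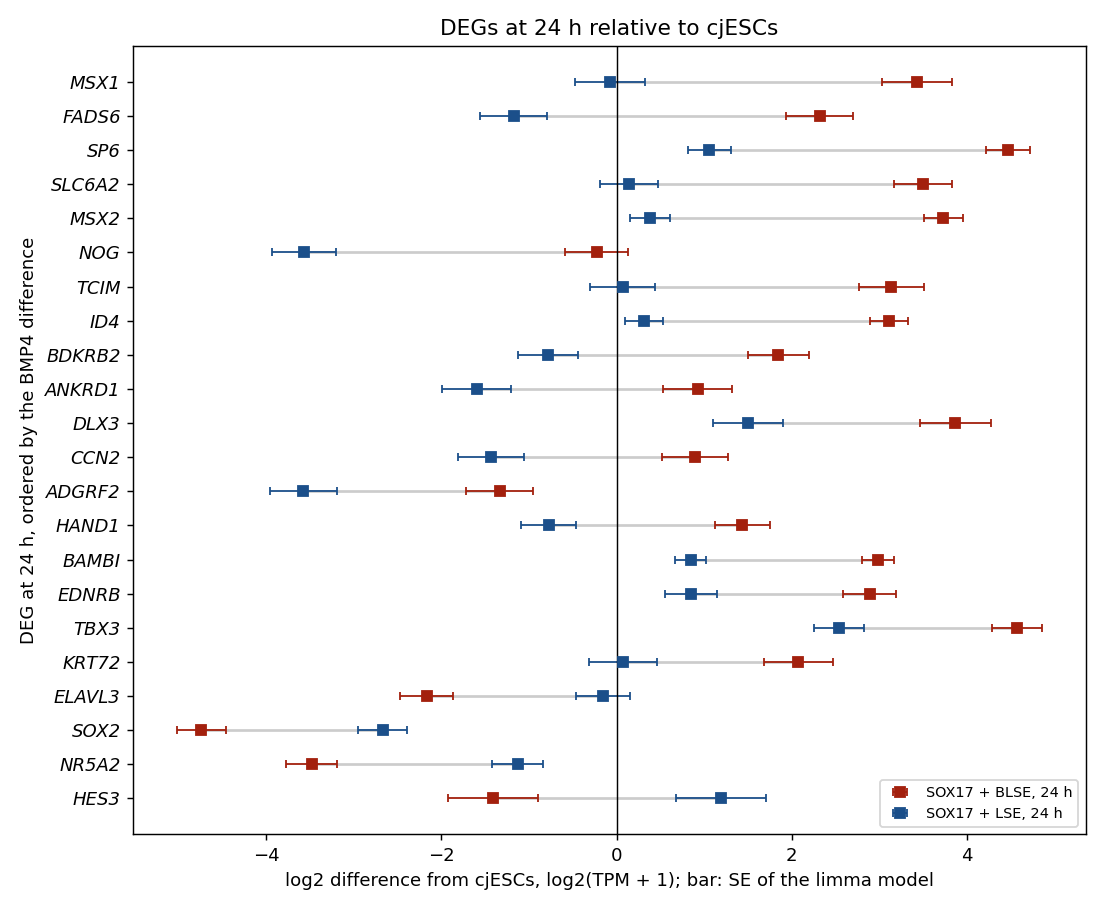
Log2 difference from cjESCs at 24 h (x axis, log2(TPM + 1) scale) of DEGs of that time (2 are not drawn), with BMP4 (red) and without it (blue); bars are the SE of the limma model and grey lines join the arms of a gene. NOG with BMP4 lies near 0 and without it at −3.57, whereas MSX2 lies at 3.73 with BMP4 and 0.38 without it.

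The pluripotency genes that were called stood lower with BMP4. Of 18 tested pluripotency genes, 1 was called lower at 12 h and 7 at 24 h, and none higher at either time (unadjusted p under 0.05: 0 higher at 12 h and 1 at 24 h), with a median difference of −0.19 and −0.52. Over all genes tested, 0.0536% were called lower at 12 h and 2.3% at 24 h. SOX2 (gene 100407856), a core pluripotency factor that is switched off in primate PGCs and kept in neural cells, was at 191 and 200.4 TPM in cjESCs. It was at 14.98 and 10.8 TPM against 26.99 and 21.9 TPM at 12 h and 5.57 and 7.21 TPM against 30.3 and 29.4 TPM at 24 h. It was below cjESCs in both arms, with differences of −2.67 (adjusted p = 8.05e-09) without BMP4 and −4.74 (adjusted p = 3.63e-15) with it at 24 h, and the arms were apart at both times. The BMP4 difference was −0.88 ± 0.28 (adjusted p = 0.31) at 12 h, which did not pass, and −2.07 ± 0.28 (adjusted p = 4.83e-06) at 24 h, where the adjusted p became 0.0505 with a pseudocount of 0.1 in place of 1. PRDM14 (gene 100411718), a repressor needed in mouse PGCs, was at 44.1 and 50.96 TPM against 106 and 84.96 TPM at 12 h and 25.2 and 27.5 TPM against 104 and 97.8 TPM at 24 h, against 202 and 130 TPM in cjESCs. Its difference was −0.99 ± 0.24 (adjusted p = 0.0454) and −1.899 ± 0.24 (adjusted p = 1.04e-06). The 12 h call was lost without any 1 of the 8 libraries (largest adjusted p = 0.587).

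The other pluripotency genes called at 24 h were UTF1, DPPA4, DPPA5, LIN28A and FOXD3. UTF1 (gene 100392482), a chromatin-associated factor, was at 91.1 and 122 TPM against 206 and 241 TPM (−1.07 ± 0.19, adjusted p = 0.000189). DPPA4 (gene 100385531) was at 186 and 199 TPM against 304 and 284 TPM (−0.61 ± 0.13, adjusted p = 0.00202). LIN28A (gene 100405014), which binds let-7 precursors, was at 750 and 724 TPM against 1101 and 983 TPM (−0.497 ± 0.13, adjusted p = 0.0176). The call of DPPA4 was lost without BLSE 1 or LSE 1 (adjusted p = 0.0503 to 0.0518). That of LIN28A was lost without BLSE 1, BLSE 2 or LSE 1 (adjusted p = 0.0918 to 0.244). FOXD3 (gene 108592420), a forkhead factor of pluripotent cells and neural crest, was at 2.62 and 3.39 TPM against 8.07 and 14.9 TPM (−1.59 ± 0.37, adjusted p = 0.00617; lost without BLSE 1 or LSE 2, adjusted p = 0.0989 to 0.189). DPPA5 (gene 100386871) was at 307 and 386 TPM against 507 and 495 TPM (−0.54 ± 0.16, adjusted p = 0.0354; lost without BLSE 1, LSE 1 or LSE 2, adjusted p = 0.139 to 0.415). POU5F1 (gene 100384946) was at 4459.6 and 5098 TPM against 3799.7 and 4298 TPM at 24 h (0.24 ± 0.10, adjusted p = 0.192), which passed with quantile normalization (0.38, adjusted p = 0.0181). NANOG (gene 100399586) was at 382 and 395 TPM against 479 and 454 TPM (−0.26 ± 0.17, adjusted p = 0.534), and with the values as deposited neither was called at 12 or 24 h. POU5F1 stood above cjESCs (3082 and 2868 TPM) in both arms at 24 h, by 0.68 (adjusted p = 1.21e-06) with BMP4 and 0.44 (adjusted p = 0.00093) without it.

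The 3 further lower DEGs at 24 h lay outside this list. HES3 (gene 100408172), a basic helix-loop-helix repressor of neural progenitors, was at 2.38 and 17.7 TPM against 44.5 and 50.7 TPM at 24 h (−2.61 ± 0.51, adjusted p = 0.001). Its replicates with BMP4 were far apart, and the call was lost without BLSE 1 (adjusted p = 0.21). NR5A2 (gene 100388656), a nuclear receptor that can drive POU5F1, was at 2.16 and 1.89 TPM against 16.7 and 12.4 TPM (−2.35 ± 0.29, adjusted p = 8.18e-07), against 38.97 and 27.5 TPM in cjESCs. ELAVL3 (gene 100391077), an RNA-binding protein of neurons, was at 3.26 and 4.5 TPM against 17.6 and 19.6 TPM (−2.02 ± 0.31, adjusted p = 3.1e-05). Of 18 tested neural and anterior epiblast genes, SOX2 and HESX1 (gene 100389489) were called lower at 24 h and SOX3 (gene 100404149) higher, and 15 were not called (all genes tested: 2.56% higher and 2.3% lower). HESX1, a homeobox repressor of the anterior neural plate, was at 0 and 0.17 TPM against 2.15 and 2.48 TPM (−1.61 ± 0.33, adjusted p = 0.00157). SOX3, the nearest relative of SOX2, was at 33.7 and 33.5 TPM against 9.41 and 14.6 TPM (1.44 ± 0.36, adjusted p = 0.0102; lost without BLSE 1, BLSE 2 or LSE 1, adjusted p = 0.0703 to 0.219). ZIC2 (gene 100412407) was at 35.8 and 20.4 TPM against 81.3 and 51.2 TPM, apart between the arms, with a difference of −1.23 ± 0.60 (adjusted p = 0.334) that passed in the model of the 26 libraries of the line with transgenes (adjusted p = 0.0225).

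**Figure D5:**
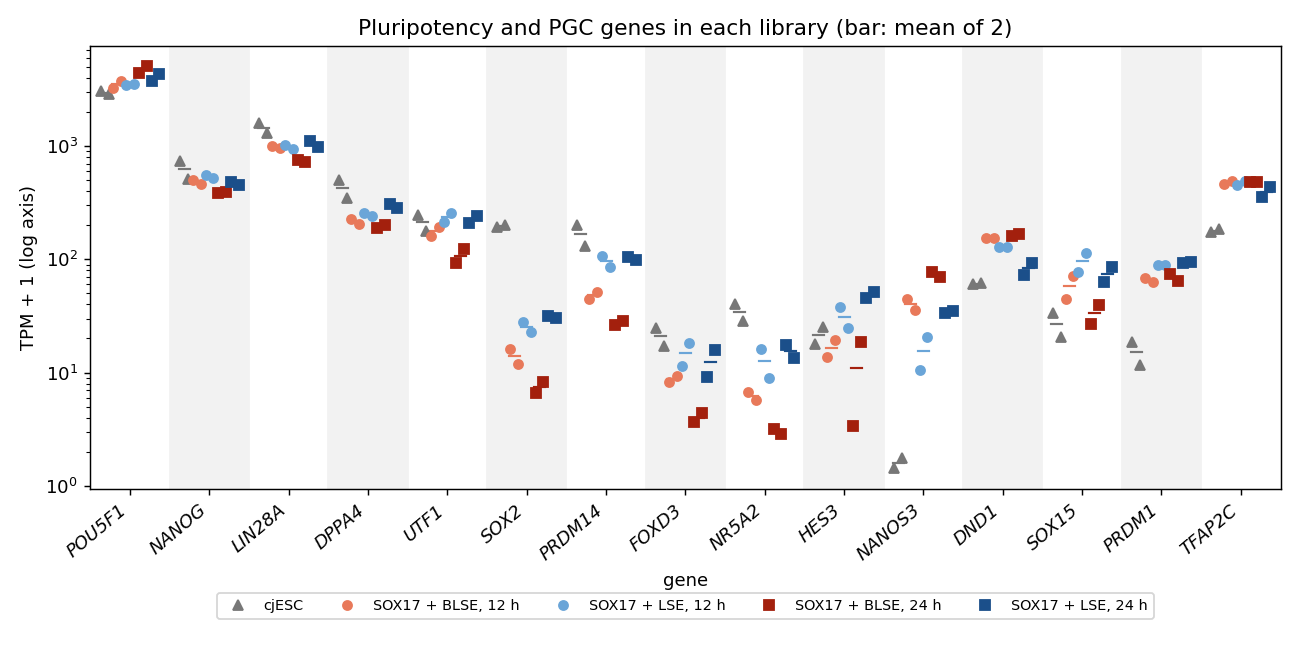
Levels of 15 pluripotency and PGC genes as TPM + 1 on a log axis, by gene, drawn as in the plot of target genes (points are libraries, bars means of 2). POU5F1 and NANOG lie close together in the 2 arms, SOX2 and PRDM14 fall from cjESCs in both arms and lie lower with BMP4, and NANOS3 rises from under 1 TPM in both arms and lies higher with BMP4.

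Of 14 tested genes of a list for PGC specification, 2 were called higher and 2 lower at 24 h. Over all genes tested, 2.56% were called higher and 2.3% lower at that time. NANOS3 (gene 100405226), an RNA-binding factor that protects early germ cells, rose from 0.42 and 0.74 TPM in cjESCs to 43.9 and 34.4 TPM against 9.56 and 19.7 TPM at 12 h and 75.6 and 68.7 TPM against 32.6 and 33.7 TPM at 24 h. It was above cjESCs in both arms, by 4.44 (adjusted p = 1.44e-13) without BMP4 at 24 h. The BMP4 difference was 1.43 ± 0.29 (adjusted p = 0.00876) at 12 h, then 1.1 ± 0.29 (adjusted p = 0.0196) at 24 h, and 1.27 ± 0.21 (adjusted p = 7.37e-05) over both times, where it held without any 1 library. At 12 h alone the call was lost without BLSE 1 or LSE 1 (adjusted p = 0.321 to 0.526), and at 24 h alone without any 1 of the 4 libraries (adjusted p = 0.0782 to 0.161). DND1 (gene 100396355), which works with NANOS proteins on germ cell messages, was at 161 and 167 TPM against 72.4 and 92.05 TPM at 24 h (1.0 ± 0.25, adjusted p = 0.0121; lost without BLSE 1, BLSE 2 or LSE 1, adjusted p = 0.0821 to 0.208). SOX15 (gene 100387826) was lower, at 25.96 and 38.7 TPM against 62.6 and 84.3 TPM (−1.17 ± 0.26, adjusted p = 0.00336; lost without BLSE 1 or LSE 2, adjusted p = 0.102 to 0.15). PRDM14, given above, is also on this list.

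No difference was called at 12 or 24 h for the other core PGC factors. PRDM1 (gene 100401970) was at 72.8 and 62.7 TPM against 91.7 and 93.6 TPM at 24 h, with a difference of −0.45 ± 0.21 (adjusted p = 0.294), in levels that did not overlap. TFAP2C (gene 100400638) was at 481 and 482 TPM against 356 and 433 TPM (0.29 ± 0.18, adjusted p = 0.51). SOX17 (gene 100396115) was at 180.2 and 189 TPM against 109.8 and 122 TPM (0.67 ± 0.29, adjusted p = 0.23). The SOX17 levels at 24 h did not overlap, and the difference passed when the model held the 8 libraries alone (adjusted p = 0.0176) and in one restricted to the 26 libraries of the line with transgenes (adjusted p = 0.0297). At 12 h SOX17 was at 164 and 168 TPM against 165 and 175 TPM, in overlapping ranges, against 27.6 and 36.2 TPM in cjESCs. The TPM of SOX17, PRDM1 and TFAP2C may hold reads of the transgenes of this line, which were not separated. Whether the SOX17 difference at 24 h lies in the gene or the transgene was not tested. DPPA3 (gene 100395243) was at 47.1 and 53.9 TPM against 37.4 and 52.8 TPM. PDPN (gene 100387851) was at 694 and 647 TPM against 594 and 596 TPM, neither called. In cells with BMP4 but no active SOX17-GR at 24 h, NANOS3 was at 7.78 and 8.39 TPM and PRDM1 at 11.9 and 12.2 TPM. Per the methods of the study, dexamethasone was added to switch on SOX17-GR, so those cells differed in dexamethasone as well.

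HOX genes pattern the body axis. Of 26 tested, 1 was called higher at 12 h and 10 at 24 h, and none was called lower (unadjusted p under 0.05: 0 lower at 12 h and 1 at 24 h). Over all genes tested, 0.42% were called higher at 12 h and 2.56% at 24 h. The other 16 HOX genes were not called at 24 h. The median difference was 0.31 at 12 h and 0.25 at 24 h. Most of the 10 belong to the posterior part of their clusters: HOXA9, HOXA10, HOXA11, HOXA13, HOXB9, HOXB13, HOXC11 and HOXC13, beside HOXA5 and HOXB6. HOXA5 (gene 100410715), the 1 called at 12 h, was then at 6.91 and 6.54 TPM against 2.13 and 2.39 TPM (1.25 ± 0.30, adjusted p = 0.0454). This call was lost without any 1 of the 4 libraries (adjusted p = 0.195 to 0.505). Over both times the difference was 1.26 ± 0.21 (adjusted p = 0.000123), which held without any 1 library. HOXA10 (gene 100396925) was at 25.6 and 26.8 TPM against 13.6 and 19.7 TPM at 12 h and 28.7 and 29.1 TPM against 6.66 and 8.84 TPM at 24 h (0.64 ± 0.24, adjusted p = 0.505, then 1.78 ± 0.24, adjusted p = 3.96e-06). HOXA11 (gene 100398017) was at 23.7 and 27.8 TPM against 8.72 and 7.04 TPM at 24 h (1.59 ± 0.27, adjusted p = 0.000141). HOXA13 (gene 100410353) was at 21.8 and 17.1 TPM against 5.56 and 6.36 TPM (1.55 ± 0.29, adjusted p = 0.000592). In cjESCs these 3 were at 1.99 and 3.2 TPM, 1.92 and 2.18 TPM and 1.14 and 1.85 TPM. They were called above cjESCs in both arms, at 24 h without BMP4 by 1.29 (adjusted p = 0.000156), 1.54 (adjusted p = 6.99e-05) and 1.49 (adjusted p = 0.000259). HOXB13 (gene 100399670) was at 15.9 and 11.6 TPM against 2.63 and 4.09 TPM (1.76 ± 0.48, adjusted p = 0.0216), a call lost without any 1 of the 4 libraries (adjusted p = 0.0558 to 0.244). Transcripts of neighbouring HOX genes can overlap, and how reads were divided among them was not tested.

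Of 20 tested genes of the primitive streak and mesoderm, 2 were called higher and 2 lower at 24 h, and none at 12 h (unadjusted p under 0.05: 4 higher and 1 lower). At 24 h the shares over all genes tested were 2.56% higher and 2.3% lower. TBX4 (gene 100411523), a T-box factor of hindlimb and allantois, was at 13.1 and 19.8 TPM against 4.14 and 5.01 TPM (1.62 ± 0.35, adjusted p = 0.00303). FOXF1 (gene 100406681), of lateral mesoderm, was at 10.04 and 9.26 TPM against 6.12 and 2.29 TPM (1.14 ± 0.32, adjusted p = 0.0274). Lower were the organiser gene GSC (gene 100390778), at 2.18 and 1.67 TPM against 8.6 and 8.58 TPM (−1.72 ± 0.51, adjusted p = 0.0389). FOXC1 (gene 100393752), of paraxial mesoderm, was at 0.7 and 1.1 TPM against 7.17 and 4.56 TPM (−1.83 ± 0.39, adjusted p = 0.00206). The calls of the higher pair were lost for TBX4 without BLSE 2 or LSE 1 (adjusted p = 0.0647 to 0.0939) and for FOXF1 without BLSE 1, BLSE 2 or LSE 2 (adjusted p = 0.108 to 0.555). Those of the lower pair were lost for GSC without any 1 of the 4 libraries (adjusted p = 0.136 to 0.224) and for FOXC1 without BLSE 1 or LSE 1 (adjusted p = 0.0522 to 0.082). TBXT (gene 100384957, brachyury) was high in both arms, at 491 and 431 TPM against 611 and 483 TPM at 24 h, and MIXL1 (gene 100405816) was at 93.6 and 42.9 TPM against 148 and 55.7 TPM, with overlapping arms in both. Of 13 tested endoderm genes none was called at either time in limma, and at an unadjusted p under 0.05 there was 1, lower, at each time. Of the 10 tested EMT genes none was called at 12 h (unadjusted: 1 higher and 1 lower). At 24 h 1 was, MMP2 (gene 100387448), a matrix protease, at 571 and 654 TPM against 404 and 478 TPM (0.47 ± 0.14, adjusted p = 0.0437; lost without any 1 of the 4 libraries, adjusted p = 0.0526 to 0.452). VIM (gene 100408168) was at 609 and 686 TPM against 651 and 721 TPM. SNAI2 (gene 100404347) was at 13.1 and 9.66 TPM against 8.35 and 7.93 TPM at 24 h, neither called.

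Calls in signalling lists other than BMP follow, for 24 h beside shares over all genes tested of 2.56% higher and 2.3% lower. Whether a list differed from these shares was not tested. Single calls in lists of this size are given as values of those genes and not as a change of the list. Of 29 tested WNT pathway genes, 1 was called higher at 12 h, and 2 were called higher and 3 lower at 24 h. NOTUM (gene 100393886), which removes the lipid from WNT ligands, was at 28.6 and 33.95 TPM against 10.7 and 11.6 TPM at 12 h (1.404 ± 0.24, adjusted p = 0.00083) and 36.4 and 42.4 TPM against 19.9 and 21.8 TPM at 24 h (0.89 ± 0.24, adjusted p = 0.0224). Its call held without any 1 library at 12 h but was lost at 24 h without any 1 of the 4 libraries (adjusted p = 0.0757 to 0.205). TCF7L1 (gene 100403963), a repressor of WNT targets, was at 32.5 and 41.6 TPM against 71.7 and 67.03 TPM at 24 h (−0.896 ± 0.16, adjusted p = 0.000344). WNT3 (gene 100398579) was higher, at 53.1 and 37.5 TPM against 23.03 and 16.5 TPM (1.15 ± 0.30, adjusted p = 0.0136). The WNT target SP5 (gene 100412604) was lower, at 25.1 and 22.3 TPM against 74.7 and 75.6 TPM (−1.62 ± 0.48, adjusted p = 0.0392). The call of WNT3 was lost without BLSE 1 or LSE 2 (adjusted p = 0.215 to 0.238), and that of SP5 without any 1 of the 4 libraries (adjusted p = 0.151 to 0.209). LGR5 (gene 100399702) was at 2.92 and 2.2 TPM against 6.19 and 7.19 TPM (−1.12 ± 0.27, adjusted p = 0.00913; lost without BLSE 2 or LSE 2, adjusted p = 0.103 to 0.132). LEF1 (gene 100399759) was at 3.75 and 6.82 TPM against 4.01 and 3.84 TPM at 24 h, in overlapping arms. Of 15 tested NOTCH genes, 3 were called higher and 1 lower at 24 h. HES1 (gene 100398058), a target of NOTCH and BMP, was at 50.7 and 51.2 TPM against 14.7 and 15.9 TPM (1.67 ± 0.30, adjusted p = 0.000254), and HEY1 is given above. The ligand JAG1 (gene 100414977) was at 23 and 28.3 TPM against 10.2 and 17.04 TPM (0.9 ± 0.23, adjusted p = 0.0153; lost without BLSE 2 or LSE 1, adjusted p = 0.199 to 0.447). The receptor NOTCH1 (gene 103795708) was the lower one, at 6.22 and 5.58 TPM against 12.3 and 12.8 TPM (−0.98 ± 0.29, adjusted p = 0.039; lost without any 1 of the 4 libraries, adjusted p = 0.14 to 0.222).

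Of 11 tested NODAL and activin genes, 1 was called lower at 24 h: FOXH1 (gene 100389238), the partner of SMAD2 and SMAD3, at 30.9 and 32.5 TPM against 50.4 and 52.6 TPM (−0.68 ± 0.18, adjusted p = 0.0169; lost without any 1 of the 4 libraries, adjusted p = 0.0753 to 0.142). NODAL (gene 100406643) was at 132 and 113 TPM against 226 and 139 TPM, −0.54 ± 0.40 (adjusted p = 0.621). Of 21 tested genes of FGF and ERK feedback, ETV5 (gene 100411591), an ERK-induced ETS factor, was called lower at 24 h, at 12.6 and 10.2 TPM against 37.8 and 35.2 TPM (−1.61 ± 0.27, adjusted p = 0.000148). DUSP5 (gene 100411575), an ERK phosphatase, was called higher, at 175 and 147 TPM against 94.2 and 88.3 TPM (0.81 ± 0.23, adjusted p = 0.0333; lost without any 1 of the 4 libraries, adjusted p = 0.071 to 0.282). ETV5 with BMP4 was close to the 14.01 and 9.31 TPM of cjESCs, and without it stood above them by 1.59 (adjusted p = 4.85e-05). 

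Dexamethasone was in both arms, so the targets of the glucocorticoid receptor were looked at as well. Of 10 tested, none was called at 12 h (unadjusted p under 0.05: 2 higher and 0 lower), and 1 was called higher and 1 lower at 24 h. The first was NFKBIA (gene 100402266), the inhibitor of NF-κB, at 88.5 and 77.96 TPM against 44.99 and 40.3 TPM (0.95 ± 0.20, adjusted p = 0.00251; lost without BLSE 1 or LSE 2, adjusted p = 0.0504 to 0.064). The second was KLF9 (gene 100388503), a zinc finger factor, at 1.96 and 2.02 TPM against 4.82 and 4.41 TPM (−0.91 ± 0.25, adjusted p = 0.0268; lost without any 1 of the 4 libraries, adjusted p = 0.101 to 0.2). FKBP5 (gene 100413287), its best known target, was at 78.4 and 64.5 TPM against 86.8 and 64.2 TPM at 12 h and 62.9 and 55.2 TPM against 79.8 and 69.5 TPM at 24 h, not called at either time. Of 17 tested proliferation genes, 2 were called higher at 24 h and 1 lower. AURKB (gene 100399490), a mitotic kinase, was at 282 and 290.4 TPM against 193 and 179.7 TPM (0.62 ± 0.15, adjusted p = 0.008; lost without BLSE 1, BLSE 2 or LSE 2, adjusted p = 0.0577 to 0.0975). CCND3 (gene 100408249), a cyclin, was at 46.5 and 48.4 TPM against 25.8 and 29.7 TPM (0.76 ± 0.23, adjusted p = 0.047), a call lost without any 1 of the 8 libraries (largest adjusted p = 0.334). The lower one was MYCN (gene 100404698), at 97.2 and 131 TPM against 195 and 196 TPM (−0.79 ± 0.17, adjusted p = 0.00251; lost without BLSE 1, adjusted p = 0.152). The remaining lists had few calls, all at 24 h: of 8 tested trophoblast genes 1 was higher (GATA3) and 1 lower (SDC1), of 11 LIF and STAT3 targets 1 was higher (JUNB), and of 12 retinoic acid genes 1 was lower (RDH10). Of 12 cell cycle inhibitors and apoptosis genes 2 were higher (CDKN2B and BMF), and of 8 growth factors and receptors of the cultures 1 was lower (EGF). The calls of SDC1, JUNB, RDH10, CDKN2B, BMF and EGF were each lost without 1 or more of the 4 libraries of 24 h.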

How the data were processed

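RNA-seq of the 54 libraries was deposited as 1 table of TPM values. Per the labels and the methods of the study, polyA RNA was used for directional, single-end libraries, the authors aligned reads with STAR and estimated TPM with RSEM after a filter on mapping quality, and the table holds 14812 genes, 591 of them with only a locus number. TPM keeps no depth, and counting intervals are not given. The library totals of the 8 libraries lay between 833924 and 838205 TPM.

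TPM was transformed to log2(TPM + 1), with a pseudocount of 1, and the 11197 genes that reached 1.5 on this scale in any library were tested. limma (version 3.58.1, R 4.3.3) was fitted with 27 condition means (27 residual degrees of freedom, intensity trend). DEGs took the fold, adjusted p and mean level thresholds of the study, but with limma and log2(TPM + 1) in place of its count test and log2 CPM. An exact permutation test of 2 against 2 libraries cannot go below p = 0.333 and was not used. On simulated data with the same design at 12 h, 100 of 100 genes changed 8-fold and 95 of 100 changed 2-fold were called, and 12 of 10811 unchanged genes. At 24 h these were 100 of 100, 91 of 100 and 19 of 10814. Changes were given only to genes well above the filter of 1.5. The noise was drawn from the spread that the same limma model had fitted. The simulation thus cannot show recovery for weakly expressed genes or under another kind of spread.

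Replicates of the arms share numbers in the labels, which no source ties to a shared batch or day, and a fit with the replicate as a block within each time was an alternative. Other alternatives were a pseudocount of 0.1, no filter, a filter over the 8 libraries, models of 8 or 26 libraries, median-ratio scaling, quantile normalization, no trend, a fold threshold of 2 and leaving out each library.

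The members and gene lists were chosen with earlier results of these data known. Named genes were the markers of the comparison, genes the study names for it, members of 25 lists, and at each time the 10 DEGs with the largest change in each direction that have a symbol. No genome was used, and no sequences or coordinates are given. Some genes are not reported here by name and not drawn, although they entered the fit and the counts.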

Additional observations from a re-analysis of the deposited data

Results flagged for a closer look

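Of the 11197 genes, 2 had a BMP4 difference that itself differed between 12 and 24 h, by limma's test of the 24 h difference minus the 12 h difference. For 1 of them, EIF4E1B (gene 100415426), a germline form of the cap-binding protein, the value was −1.702 ± 0.31 (adjusted p = 0.0174). It was at 1.11 and 0.88 TPM against 0.89 and 0.84 TPM at 12 h, in overlapping ranges, and listed at 0 in both libraries with BMP4 at 24 h and at 1.83 and 2.28 TPM without it, so that no fold is given. Its level was at or under 2.28 TPM in all 8 libraries, and the call was lost without any 1 of the 8 libraries (largest adjusted p = 0.175). It also lost the call with a pseudocount of 0.1 (adjusted p = 0.393). At an unadjusted p under 0.05, 551 genes passed this test. The groups hold 2 libraries each, too few to look for a single library apart from its group.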

How the results depend on the processing

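Of 97 gene calls given here with their values, 41 were lost when 1 of the 8 libraries was left out and 46 in at least 1 alternative. No gene difference given with its values changed sign. Calls named without values, among them SDC1, JUNB, RDH10, CDKN2B, BMF and EGF, were not in this count. A model of only the 8 libraries gave 5 DEGs at 12 h and 14 at 24 h, and 15, 299 and 325 called genes at 12 h, at 24 h and over both times. A fold threshold of 2 gave 25, 178 and 124 DEGs. Without 1 library the called genes ranged from 20 to 55 at 12 h, from 239 to 551 at 24 h and from 400 to 499 over both times, lowest without a replicate 1 with BMP4. The number of genes whose difference changed between the times was 0 with a pseudocount of 0.1 and in the model of only the 8 libraries, 1 with the filter applied to the 8 libraries, and 0 or 1 without 1 library. The cause of these shifts was not tested.

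A pseudocount of 0.1 ended the 24 h calls of GATA3 (adjusted p = 0.105) and HOXA13 (0.125), and the model of only the 8 libraries those of HEY1 (0.0576) and TCF7L1 (0.0529), which had held without any 1 library. GATA2 at 24 h passed in 5 alternatives, with adjusted p from 0.00827 to 0.048, and at 12 h in the model of the 26 libraries (0.043). Median-ratio scaling and quantile normalization left the share of higher calls within 10 percentage points. The counts against cjESCs, 284 calls over the named genes, ranged from 247 to 294, in alternatives chosen after seeing the data.

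The replicate numbers of the arms are shared labels only: deviations of same-numbered libraries from their group means correlated at 0.289 at 12 h and 0.181 at 24 h. With the replicate block, there were 10 and 24 DEGs at 12 and 24 h, with 50 and 559 called genes. The 12 h calls of HOXA5 and PRDM14 and the 24 h call of CCND3 had adjusted p of 0.0588, 0.0597 and 0.0536 with it. No other call given here with its values changed. Values of 2 libraries a group, with no read counts, leave the depth unknown, so that absence of a call at low TPM says little.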

Other observations

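DLX3 (gene 100387476) was among the DEGs at 12 and 24 h and was low in the cells with BMP4 but without SOX17, at 3.98 and 2.89 TPM at 12 h and 1.74 and 2.01 TPM at 24 h, where SOX17 + BLSE held 16.3 and 17.1 TPM and 24.5 and 25.5 TPM and SOX17 + LSE 1.54 and 2.23 TPM and 4.03 and 4.02 TPM. SP6 (gene 100407791) stood at 41.95 and 29.3 TPM and 60.9 and 58.7 TPM in the cells without SOX17 and at 68.2 and 68.6 TPM and 158 and 130.3 TPM with both. MSX2 (gene 100387689), by contrast, was at 179 and 150.1 TPM and 210.2 and 203 TPM without SOX17 and 233 and 197 TPM and 349.9 and 289.6 TPM with it. The comparison of BMP4 with and without SOX17 shares the SOX17 + BLSE libraries, and no arm lacked both factors. Per the methods of the study, dexamethasone was added to switch on SOX17-GR, so its effect cannot be told apart from that of SOX17 here. The genes of this paragraph were chosen after their values were seen, so the values are given as a description.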
